A study of Homo sapiens with 9 samples.

Results

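HAND2 was knocked down in LAN5 cells, an established human neuroblastoma line, and the transcriptome of the knockdown cells was set against that of cells given a control siRNA. The comparison rests on 6 of the 9 libraries of the series: the 3 labelled siHAND2 and the 3 labelled siCTR, chosen by the names of their columns. The other 3 libraries received an siRNA against MYCN (siMYCN). They served to estimate the spread of each gene and to show where the response to the HAND2 siRNA differed from the response to another siRNA. A small interfering RNA (siRNA) is a short double-stranded RNA that directs the degradation of a matching transcript. All groups shared the line, the serum-containing growth medium, delivery by nucleofection (a form of electroporation) and collection 72 h later. The labels give 1 siRNA per target (siHAND2_3 and siMYCN_2), so an effect of the HAND2 siRNA on other transcripts cannot be told apart from an effect of HAND2. Nothing in the labels says whether the 3 libraries of a group came from separate cultures, so p-values measure the spread between these libraries, which may be technical.

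HAND2 is a transcription factor with a basic helix-loop-helix domain, which binds DNA at E-box motifs as a dimer, usually with an E protein such as TCF3, TCF4 or TCF12. ID proteins have the helix-loop-helix but no basic region and take up E proteins without binding DNA. In the embryo HAND2 acts in the heart, the limb buds, the branchial arches and the sympathetic nervous system, where it is needed for the noradrenergic phenotype, including expression of the enzymes that make noradrenaline. Neuroblastoma arises from this sympathetic lineage, and HAND2 belongs to the set of transcription factors that holds many of these tumours in a noradrenergic state.

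The table gives CPM, the reads of each gene scaled to a common library total, for 25084 genes. The smallest step between low CPM values gave an estimated depth of 21060000 to 32690000 reads per library over the 6 libraries. At that depth the sampling of reads gives a gene at 1 CPM an error of 17.5% to 21.8%. Only 80.0% to 81.2% of the low values were whole multiples of the step, under the 95% set as needed. Depth and error are therefore approximate. siHAND2 replicate 3 stood apart from the other two of its group: the chi-square per degree of freedom between replicates was 8.92 and 8.17 in its pairs, 3.44 between siHAND2 replicates 1 and 2, and 2.91 to 3.62 among the siCTR libraries. At the estimated depths no pair agreed within counting noise. Of 12 markers of sympathetic neuroblasts all 12 passed the filter described below, and their summed level was 4971 to 5219 CPM in siCTR and 4102 to 4181 CPM in siHAND2. HAND2 and MYCN are among these 12, and their means changed by -229.69 and -927.86 CPM, which covers the whole drop of the sum. By the test described below 3 of the 12 rose and 4, HAND2 and MYCN among them, fell (18.1% and 11.8% of all genes). No marker of endothelial cells (6 listed and measured), macrophages (4) or adrenocortical cells (2) passed the filter. PECAM1 from the endothelial list and PTPRC from the macrophage list reached at most 0.071 CPM in any of the 6 libraries. Of 3 measured epithelial markers 1 passed and was not called, and the 3 summed to 3.08 to 3.22 CPM in siCTR and 2.87 to 3.98 CPM in siHAND2.

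The test took in the 14495 genes that reached 1 CPM in 3 or more of the 9 libraries. Values were compared as log2(CPM + 1) with limma, a linear model that shares the estimate of spread across genes, with Benjamini-Hochberg adjustment across every tested gene. "Rose", "fell" and "called" below mean an adjusted p under 0.05 in that fit. Log2 fold changes are siHAND2 minus siCTR unless stated, and they understate the change of genes near 1 CPM. For every gene named below as having risen or fallen, the 3 siHAND2 libraries lay outside the range of the 3 siCTR libraries.

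The targeted transcript was lower in all 3 siHAND2 libraries. HAND2 (chromosome 4, 173524969 to 173530229, GRCh38) gave 516, 499 and 489 CPM in the siCTR libraries, in the order of their replicate numbers, and 268, 267 and 280.4 CPM in siHAND2. The groups did not overlap, and 54.2% of the siCTR mean was left, a log2 fold change of -0.88 (95% confidence interval -0.97 to -0.80, limma adjusted p = 1.25e-10). MYCN (chromosome 2, 15940550 to 15947007), which carries extra copies in this line, was not the target here and measured 1848, 1894 and 1786 CPM in siCTR against 898, 969 and 877 CPM in siHAND2. Its log2 fold change was -1.01 (95% confidence interval -1.11 to -0.91, adjusted p = 1.72e-10), and 49.6% of its siCTR mean was left. Each result below therefore describes cells in which both transcripts were lower. In siMYCN, HAND2 measured 588, 557 and 568 CPM, above siCTR (0.19 for siMYCN minus siCTR, limma adjusted p = 0.00183). Comparisons of siHAND2 with siMYCN below thus set cells with less HAND2 transcript than siCTR against cells with more.

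Of the 14495 genes tested, 4339 (29.9%) passed the threshold, 2630 (18.1%) higher and 1709 (11.8%) lower in siHAND2. Most shifts were small: 554 called genes changed at least 1.5-fold, 143 (0.987% of those tested) at least 2-fold and 41 at least 3-fold, as measured on log2(CPM + 1). Large changes were mostly rises, with 100 rises and 43 falls among those of at least 2-fold and 34 rises and 7 falls among those of at least 3-fold. On this scale a gene with a low siCTR level can fall only by a limited amount, while its rise has no such limit. How much this adds to the excess of rises was not tested. In 6148 genes (42.4%) the 3 siHAND2 libraries did not overlap the 3 siCTR libraries, 3744 (25.8%) above and 2404 (16.6%) below. Calls became more frequent with abundance, from 19.9% of the genes under 5.85 CPM to 38.9% of those above 58.1 CPM, while changes of at least 2-fold became rarer, 61 in the lowest class of abundance against 16 in the highest. The called genes that rose gained 35730 CPM in all, and the summed level of those that fell decreased by 35910 CPM. Every library is scaled to the same CPM total, so gains and losses over all genes cancel by construction.

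The share of rises among all calls depended on the scaling of the libraries. It was 60.6% with CPM as deposited, 45.6% (1937 higher, 2313 lower) when libraries were rescaled by the median ratio and 47.8% (1981 higher, 2166 lower) when they were quantile normalized. These scalings lowered the median log2 fold change of all tested genes from 0.039 to -0.002 and -0.003. Without siHAND2 replicate 3 the count was 4341 (2498 higher and 1843 lower), and the lists with the most uniform changes below kept their counts: 9 falls in catecholamine genes, 11 rises and 1 fall in collagens, 33 falls in MYC targets and 28 falls in glycolysis and hypoxia genes.

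**Figure D1:**
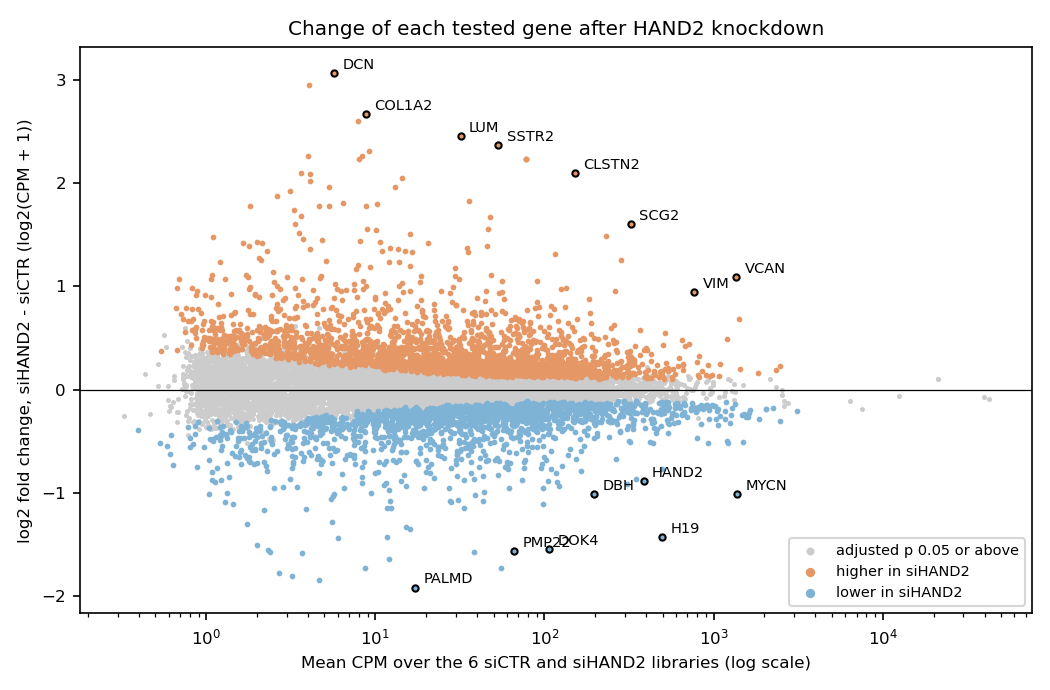
Log2 fold change of log2(CPM + 1), siHAND2 minus siCTR, against the mean CPM over the 6 libraries (log axis) for the 14495 tested genes; orange and blue points passed an adjusted p of 0.05 higher and lower. The rises reach 3.07 (DCN) and the falls -1.92 (PALMD), and the abundant genes VCAN, VIM, HAND2 and MYCN lie about 1 unit from 0.

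The largest rises included genes of the extracellular matrix and of secreted and surface proteins. The 12 with the largest log2 fold change among called genes whose CPM averaged 5 or more over the 6 libraries, with groups that did not overlap, lay between 1.96 and 3.07. Decorin (DCN, chromosome 12, 91140484 to 91182824), a small leucine-rich proteoglycan that binds collagen fibrils, led them: it went from 0.397, 0.374 and 0.522 CPM in siCTR to 11.7, 10.2 and 11.2 CPM in siHAND2 (3.07, standard error 0.11, limma adjusted p = 1.26e-11). The related proteoglycan gene LUM (chromosome 12, 91102629 to 91111494), its neighbour on the chromosome, went from 8.99, 9.21 and 9.25 to 56.2, 49.8 and 58.2 CPM (2.45, adjusted p = 6.21e-13). For both the siHAND2 libraries lay far above all siCTR libraries, from a starting level that for DCN was under 1 CPM.

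Collagen chains were also among the 12. COL1A2, a chain of type I collagen, went from 1.53, 1.65 and 1.8 to 18.3, 15.2 and 14.3 CPM (2.67). COL12A1 (chromosome 6, 75084326 to 75206053), a collagen found along fibrils, went from 2.29, 2.06 and 2.85 to 17.6, 15.9 and 14.2 CPM (2.31, adjusted p = 1.22e-10). COL6A3 (chromosome 2, 237324003 to 237414207), a chain of the microfibrillar type VI, went from 2.2, 2.58 and 1.8 to 17.3, 12.9 and 12.8 CPM (2.26, adjusted p = 8.11e-10). TNFAIP6 (chromosome 2, 151357592 to 151380046), a secreted protein that binds hyaluronan, rose from 4.59, 5.73 and 4.6 to 23.9, 20.2 and 27.3 CPM (2.05, adjusted p = 4.76e-10). PAPPA, a secreted protease that cleaves insulin-like growth factor binding proteins, reached 14.5, 13.4 and 14.8 CPM from 1.47, 1.49 and 1.56 CPM. All these siHAND2 libraries lay above every siCTR library. The complement gene C7 reached 24.1, 19.8 and 20.5 CPM from 5.5, 3.89 and 4.98 CPM.

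The rest of the 12 encode signalling, surface and regulatory proteins. CLSTN2 (chromosome 3, 139935185 to 140577397), a calsyntenin of the cadherin superfamily, was the most abundant of them, at 56.2, 58.8 and 54.7 CPM in siCTR and 249.8, 225 and 260.1 CPM in siHAND2 (2.09, adjusted p = 8.26e-13). The somatostatin receptor gene SSTR2 went from 16.5, 15 and 18.5 to 97.1, 84.4 and 88.2 CPM (2.37). The cyclic AMP phosphodiesterase gene PDE7B (chromosome 6, 135851701 to 136195574) went from 1.96, 2.32 and 2.23 to 15.9, 13.3 and 12.6 CPM (2.23, adjusted p = 1.25e-10). EPAS1 (chromosome 2, 46293667 to 46386697), which encodes the hypoxia-inducible factor HIF-2 alpha, went from 1.41, 1.72 and 1.66 to 9.73, 8.88 and 8.68 CPM (1.96, adjusted p = 2.13e-09). In all 12 genes siHAND2 also lay above siMYCN in the direct comparison of those libraries (limma, adjusted p up to 7.92e-05, for C7). The siMYCN mean was above the siCTR mean in 10 of them and below it in CLSTN2 (47.5 CPM) and TNFAIP6 (4.23 CPM).

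The 12 largest falls under the same conditions lay between -1.33 and -1.92. The minimum of 5 CPM left out 5 rises larger than 1.96 and 7 falls larger than 1.33 in size, DLK1 (described below) among them with a mean of 4.67 CPM. PALMD, which encodes the cytosolic protein palmdelphin, went from 28.6, 27.7 and 27 to 5.43, 6.81 and 7.79 CPM (-1.92). PMP22 (chromosome 17, 15229777 to 15265326), a membrane protein best known from peripheral myelin, measured 103, 101 and 95.9 CPM in siCTR and 32.5, 32.7 and 34.3 CPM in siHAND2 (-1.56, standard error 0.04, limma adjusted p = 8.26e-13). The adaptor gene DOK4 (chromosome 16, 57471922 to 57487327), whose product docks on receptor tyrosine kinases such as RET, went from 159.6, 141 and 178 to 53.1, 53.5 and 54.3 CPM (-1.55, adjusted p = 2.74e-10). In both genes the 3 siHAND2 libraries lay within a narrow band, at 33.2% and 33.7% of the siCTR means. PMP22 also marks Schwann cells; of 6 Schwann cell markers in the table it was the only one to pass the filter, and SOX10, which defines that lineage, stayed between 0.285 and 0.532 CPM.

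Other falls were in receptors, matrix genes and enzymes. PTGFR, the receptor of prostaglandin F, went from 59.4, 60.5 and 52.7 to 16.5, 16.7 and 23.2 CPM (-1.58, adjusted p = 4.8e-09). HMCN1, which encodes the matrix protein hemicentin, went from 19.2, 17.6 and 19.5 to 4.9, 4.94 and 6.24 CPM (-1.64, adjusted p = 1.92e-09), and COL6A6, another type VI collagen chain, from 16.9, 15.2 and 20.5 to 5.26, 6.65 and 5.7 CPM (-1.43, adjusted p = 1.24e-07). COL6A6 thus moved against COL6A3. The gluconeogenic enzyme gene FBP1 fell by 1.43 on the log2 scale (adjusted p = 4.13e-08), CSGALNACT1, an enzyme of chondroitin sulfate synthesis, by 1.33 (adjusted p = 3.07e-10), and PRR16 by 1.35 (adjusted p = 5.53e-10). FAM167A (-1.73) and the serine protease gene PRSS35 (-1.73) complete the list together with the imprinted noncoding RNA gene H19, described below. All 12 lay below siMYCN in the direct comparison (adjusted p up to 1.2e-06, for H19). The siMYCN mean was above the siCTR mean in 10 of the 12 and below it in HMCN1 (15 CPM) and H19 (487 CPM).

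**Figure D2:**
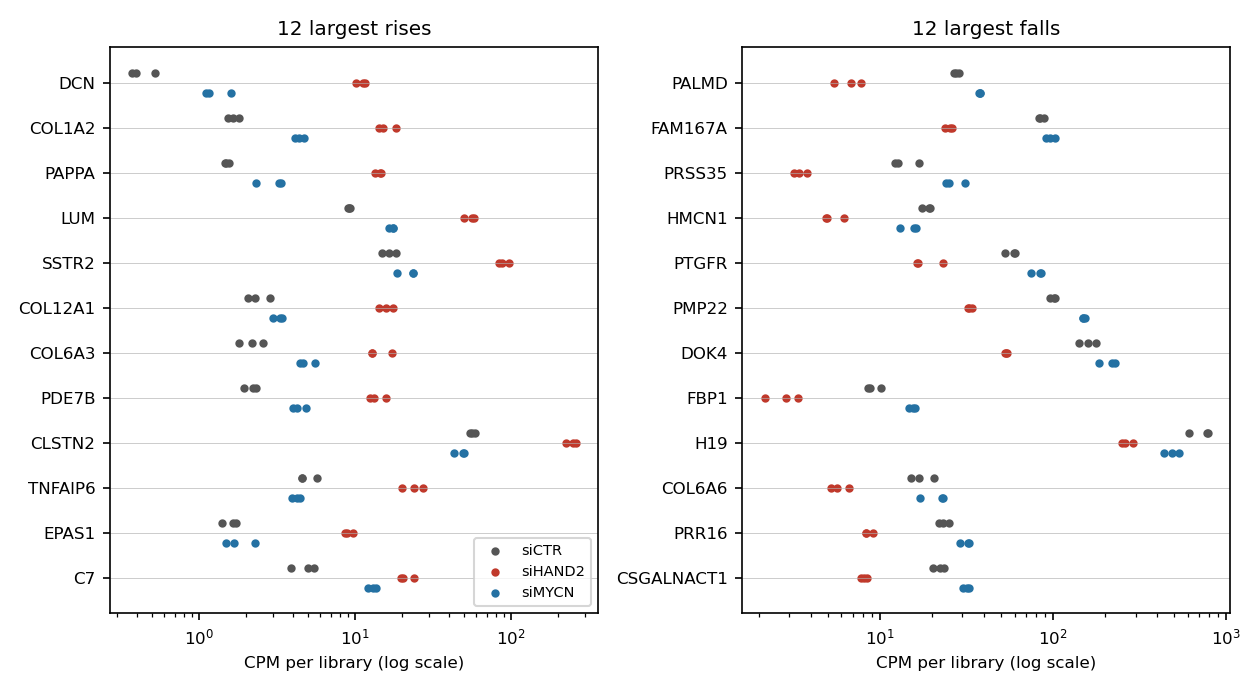
CPM in each library (log axis) for the 12 largest rises (left) and the 12 largest falls (right), with siCTR in grey, siHAND2 in red and siMYCN in blue. The red points lie apart from the grey and the blue points in every row; DCN starts under 1 CPM, and H19 is the most abundant of the 24 genes.

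Promoters of these genes were read from RefSeq (GRCh38.p14) to look for CATCTG or its reverse complement CAGATG, a form of the E-box bound by dimers of HAND and TWIST family proteins. Within 250 bases before the start, 12.2% of all 35116 promoters in the table hold it on either strand. Of the 12 rises, 9 matched the table with 9 promoters, of which 2 (22.2%) hold the motif; of the 12 falls, 9 matched with 17 promoters, of which 2 (11.8%, both alternative starts of PRR16) hold it. The largest fall, PALMD, has no match in this window. A match is a description of letters, not a site. The 3 promoters with a match at the start used in the CPM table, and that of PALMD for comparison, are written from 5′ to 3′ on the strand of the gene with the motif in capitals.
TNFAIP6 (chr2:151357342-151357591, plus strand): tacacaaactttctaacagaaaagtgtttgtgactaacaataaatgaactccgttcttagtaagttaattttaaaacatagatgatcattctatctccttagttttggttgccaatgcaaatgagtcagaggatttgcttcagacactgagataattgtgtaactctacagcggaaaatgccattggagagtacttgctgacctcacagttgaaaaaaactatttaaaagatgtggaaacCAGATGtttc
C7 (chr5:40909247-40909496, plus strand): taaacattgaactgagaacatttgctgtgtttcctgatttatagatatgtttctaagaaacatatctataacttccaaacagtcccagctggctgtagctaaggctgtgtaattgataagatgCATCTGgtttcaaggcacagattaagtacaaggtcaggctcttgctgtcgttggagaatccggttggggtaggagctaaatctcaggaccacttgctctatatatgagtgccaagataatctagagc
PRR16 (chr5:120464050-120464299, plus strand): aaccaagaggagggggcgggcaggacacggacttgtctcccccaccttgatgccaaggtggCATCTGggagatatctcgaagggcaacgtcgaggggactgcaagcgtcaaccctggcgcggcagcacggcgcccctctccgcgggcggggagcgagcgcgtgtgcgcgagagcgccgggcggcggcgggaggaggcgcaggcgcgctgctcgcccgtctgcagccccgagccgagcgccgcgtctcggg
PALMD (chr1:99645863-99646112, plus strand): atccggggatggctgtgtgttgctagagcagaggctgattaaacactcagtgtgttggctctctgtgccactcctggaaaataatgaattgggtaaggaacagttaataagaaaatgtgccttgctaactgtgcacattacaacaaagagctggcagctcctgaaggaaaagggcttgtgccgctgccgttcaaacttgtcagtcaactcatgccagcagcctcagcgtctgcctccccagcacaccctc

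Ranked by the difference in mean CPM, which is a share of the library, other genes led, H19 being the one that also stands among the 12 largest falls. VCAN, the large matrix proteoglycan versican, gained the most, from 895, 839 and 877 CPM in siCTR to 1867, 1738 and 1974 CPM in siHAND2 (1.09, limma adjusted p = 2.62e-10). The nuclear noncoding RNA MALAT1 went from 1005, 1088 and 1160.4 to 1659, 1848 and 1721 CPM (0.68, adjusted p = 3.38e-07), and vimentin (VIM), the mesenchymal intermediate filament, from 540.5, 538 and 496 to 1077, 998 and 959 CPM (0.94, adjusted p = 4.76e-10). CCND1 (cyclin D1) and ACTB (cytoplasmic actin) followed, with log2 fold changes of 0.49 (adjusted p = 8.92e-06) and 0.23 (adjusted p = 0.00615). VCAN and VIM were also above siMYCN (adjusted p = 7.81e-10 and 3.11e-07), whereas MALAT1, CCND1 and ACTB differed from siMYCN by 0.15, 0.01 and -0.08 and did not pass the threshold.

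MYCN itself lost the most CPM. It was followed by the glycolytic enzyme gene ENO1, from 1748, 1816 and 1716 to 1257, 1214 and 1239.5 CPM (-0.51, limma adjusted p = 1.53e-07). The elongation factor gene EEF2 went from 2845, 2816 and 2582 to 2362, 2284 and 2032 CPM (-0.31, adjusted p = 0.00138). H19 (described below) and GAPDH came next, GAPDH going from 3238, 3414 and 3306 to 2954, 2857 and 2808 CPM (-0.21, adjusted p = 0.0028). The call of GAPDH was lost when libraries were quantile normalized. ENO1, EEF2 and GAPDH differed from siMYCN by 0.04, 0.03 and -0.05 and did not pass the threshold. GAPDH and ACTB, both often used as reference genes, moved in opposite directions.

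The proteins that dimerise with HAND2 or take up its partners were measured next. Of the 10 listed genes 9 were tested, 5 rose and 1 fell, against 18.1% and 11.8% of all genes. All 4 ID genes rose. ID4 went from 0.917, 1.16 and 0.902 to 6.05, 5.42 and 5.49 CPM (1.74, limma adjusted p = 2.36e-08) and ID3 from 10.6, 9.21 and 14.9 to 26.1, 30.1 and 20.8 CPM (1.10, adjusted p = 2.09e-05). ID2, the most abundant ID gene, went from 48.8, 44 and 56.5 to 76.3, 78.6 and 68.4 CPM (0.58, adjusted p = 2.7e-05) and ID1 from 7.15, 7.15 and 9.35 to 13.9, 14.9 and 11.3 CPM (0.69, adjusted p = 0.000364). For each of the 4 genes siHAND2 also lay above siMYCN (adjusted p = 3.08e-07, 0.000144, 0.00156 and 0.00366 for ID4, ID3, ID2 and ID1).

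Among the E proteins TCF12 rose from 155, 153 and 157 to 189.6, 182 and 197 CPM (0.29, adjusted p = 9.19e-05). TCF4, the most abundant of them at 597 CPM in siCTR, differed by 0.05 (adjusted p = 0.448), and TCF3 by 0.12 (adjusted p = 0.184; 0.19 and 0.019 without siHAND2 replicate 3). The paralogue HAND1 fell with HAND2, from 17.6, 17.9 and 16.5 to 12.1, 10.1 and 11 CPM (-0.60, adjusted p = 8.96e-06), and lay below siMYCN as well (adjusted p = 1.26e-06). Among 9 tested members of a list of other neural helix-loop-helix factors 2 rose and 2 fell, against 18.1% and 11.8% of all genes. ATOH8 rose by 0.94 (adjusted p = 9.61e-05), and the Notch target HES1 by 0.69 (adjusted p = 0.00013). BHLHE40, a circadian repressor, fell from 14.5, 13.9 and 10.6 to 6.13, 6.48 and 8.42 CPM (-0.80, adjusted p = 6.85e-05).

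The transcription factors of the noradrenergic state did not move as one. Of 17 tested regulators other than HAND2, 10 rose and 3 fell (18.1% and 11.8% of all genes), with a median log2 fold change of 0.26 beside 0.039 over all tested genes. ISL1, a LIM-homeodomain factor of sympathetic neurons, rose from 198, 205 and 204 to 315, 299 and 325 CPM (0.63, limma adjusted p = 7.81e-09) and the chromatin organiser SATB1 from 214, 207 and 217 to 294, 298 and 299.6 CPM (0.48, adjusted p = 1.64e-07). PHOX2A, a paired homeobox factor of this lineage, measured 89.2, 90.8 and 85.7 CPM in siCTR and 97.2, 90.2 and 76.2 CPM in siHAND2 and differed by -0.02 (95% confidence interval -0.16 to 0.13).

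Most genes of catecholamine synthesis, storage, uptake and breakdown fell. Of 12 tested, 9 fell and none rose (75.0% called against 29.9% of all genes), and the median was -0.30. DBH, the enzyme that turns dopamine into noradrenaline, went from 270.0, 277 and 243 to 127, 127 and 137 CPM (-1.01, standard error 0.05, limma adjusted p = 6.84e-10). TH, the rate-limiting enzyme, was low in these cells, at 2.78, 3.37 and 2.7 CPM in siCTR and 1.18, 1.59 and 1.52 CPM in siHAND2 (-0.70, adjusted p = 0.000174), and DDC, the next enzyme, fell by 0.25 on the log2 scale (adjusted p = 0.000121). The steps from tyrosine to noradrenaline thus all had lower transcripts, DBH to 49.4%, TH to 48.6% and DDC to 84% of the siCTR mean.

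The noradrenaline transporter gene SLC6A2 went from 25.4, 22 and 26.1 to 17.8, 17.8 and 18.5 CPM (-0.42, adjusted p = 0.000164). The vesicular transporter gene SLC18A1 went from 1.22, 1.35 and 1.52 to 0.526, 0.398 and 0.284 CPM (-0.75, adjusted p = 0.000325). The degrading enzyme gene MAOA fell as well (-0.39, adjusted p = 1.82e-06). CYB561 (-0.34) and QDPR (-0.17) were called near the threshold, and each call was lost on leaving out single libraries: CYB561 without siCTR replicate 3 or siHAND2 replicate 2, QDPR without siCTR replicate 1 or 2 or siHAND2 replicate 2 or 3. The knockdowns differed in this group: 10 of the 12 were lower in siHAND2 than in siMYCN and none higher in the direct comparison, against 15.5% and 11.4% of all genes, and in 11 of the 12 the siMYCN mean lay above that of siCTR. DBH, for example, averaged 344 CPM in siMYCN and differed by -1.39 between the knockdowns (adjusted p = 1.13e-11).

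**Figure D3:**
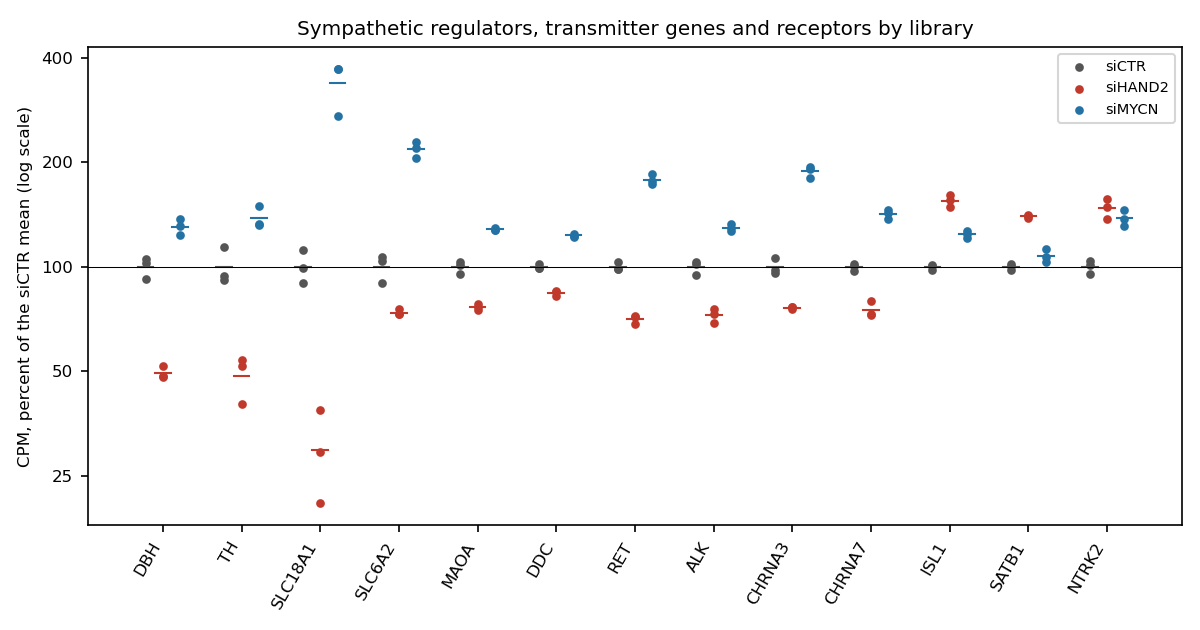
CPM in each library as percent of the siCTR mean of the gene (log axis), with a short line at the group mean; siCTR in grey, siHAND2 in red and siMYCN in blue, 3 libraries each. The siHAND2 points lie below the siCTR points from DBH to CHRNA7 and above them from ISL1 to NTRK2.

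Neuropeptide genes moved in both directions. Of 10 tested granin, neuropeptide and prohormone-processing genes 2 rose and 4 fell (all genes: 18.1% higher, 11.8% lower). SCG2 (secretogranin II) rose from 165, 158 and 156 to 533, 451 and 484 CPM (1.61, limma adjusted p = 6.83e-12), and CPE, a carboxypeptidase that trims prohormones, from 113, 115 and 109 to 174, 143 and 169 CPM (0.52, adjusted p = 4.93e-06). PAM, which amidates peptides, fell by 0.60 (adjusted p = 8.21e-07), and ADCYAP1, which encodes the peptide PACAP, by 0.37 (adjusted p = 5.61e-05). Chromogranin A (CHGA) differed by -0.08, with libraries that overlapped between groups. Of 7 tested cholinergic genes 2 fell (28.6% called, near the 29.9% of all genes), both of them receptor subunits. CHRNA7 went from 174, 176 and 168 to 125, 126 and 137 CPM (-0.41, adjusted p = 2.86e-06). CHRNA3 went from 107, 105 and 116 to 83.8, 82.8 and 83.9 CPM (-0.39, adjusted p = 7.84e-06).

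Every tested member of a list of 11 growth factor receptors of sympathetic cells and their ligands was called, 8 higher and 3 lower, where 29.9% of all genes were called. The receptor tyrosine kinase RET fell from 381, 363 and 365 to 267, 253 and 265 CPM (-0.50, limma adjusted p = 1.33e-07) and ALK from 288, 284 and 263 to 203, 210.4 and 192 CPM (-0.46, adjusted p = 1.19e-06). GFRA2, a RET coreceptor, differed by -0.18, a call that was lost in 6 alternatives, among them the fits without siCTR replicate 1, 2 or 3 or siHAND2 replicate 3. Neurotrophin receptors rose: NTRK2 (TrkB) went from 55, 56.4 and 51.6 to 85.4, 74.5 and 80.5 CPM (0.55, adjusted p = 1.82e-06). NGFR went from 1.68, 1.95 and 1.42 to 4.41, 4.62 and 2.87 CPM (0.87, adjusted p = 0.000125). NTRK3 (0.43) was near 1 CPM, and its call was lost in 8 alternatives, among them the fits without siCTR replicate 1 or 2 or any 1 siHAND2 library. The genes of the heparin-binding growth factors MDK and PTN rose by 0.37 and 0.41 (adjusted p = 5.38e-06 and 0.00088). RET and ALK were higher in siMYCN than in siHAND2 (-1.33 and -0.83 for siHAND2 minus siMYCN, adjusted p = 9.03e-13 and 6.61e-10). NTRK2, NGFR and PTN averaged 74.9, 4.86 and 19.2 CPM in siMYCN. They did not differ from siHAND2 beyond the threshold (adjusted p = 0.243, 0.18 and 0.227), whereas MDK was higher in siHAND2 (0.19, adjusted p = 0.00327). Of the 11, 2 were higher in siHAND2 than in siMYCN and 5 lower, against 11.4% and 15.5% of all genes.

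Output and feedback genes of the ERK pathway split evenly, 6 rises and 6 falls among 18 tested (all genes: 18.1% higher, 11.8% lower). There were 6 falls and 4 rises after median-ratio rescaling and 6 falls and 3 rises when quantile normalized. The oncogene MYC, nearly silent in siCTR at 0.642, 0.374 and 0.617 CPM, measured 4.8, 5.5 and 3.83 CPM in siHAND2 (1.88, limma adjusted p = 3.11e-08). The rise of MYC was larger than in siMYCN, where it averaged 1.89 CPM (adjusted p = 4.3e-05). The factors ETV1 and ETV5 fell, by 0.60 (adjusted p = 4e-06) and 0.37 (adjusted p = 9.77e-06).

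Of 27 tested genes of the neuronal cytoskeleton and growth cone 12 rose, 4 fell and 11 were not called, against 18.1% higher and 11.8% lower among all genes. The stathmin gene STMN2, a microtubule regulator of growing axons, went from 179, 186 and 164 to 359, 315 and 354 CPM (0.95, limma adjusted p = 1.81e-09), and the light neurofilament gene NEFL from 130.4, 129 and 125 to 252, 228 and 229.7 CPM (0.88, adjusted p = 1.15e-09). PRPH (peripherin), the intermediate filament of peripheral neurons, and MAP2, a dendritic microtubule protein, fell, by 0.28 (adjusted p = 0.00208) and 0.26 (adjusted p = 0.000797). In the direct comparison 18 of the 27 were lower in siHAND2 than in siMYCN and 3 higher, against 15.5% and 11.4% of all genes.

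Genes of synaptic vesicle release gave 8 rises and 5 falls among 24 tested, against 18.1% and 11.8% of all genes (6 and 6 after median-ratio rescaling). The active zone gene PCLO rose by 0.82 (adjusted p = 7.21e-06) and the calcium sensor SYT1 by 0.36 (adjusted p = 2.93e-05), while SYN2 fell by 0.69 (adjusted p = 1.89e-06) and SYT4 by 0.49 (adjusted p = 3.92e-05). Axon guidance genes gave 13 rises and 5 falls among 30 tested (all genes: 18.1% higher, 11.8% lower). The netrin receptor gene UNC5D rose from 9.97, 10.6 and 8.45 to 19.5, 18.4 and 20.3 CPM (0.94, adjusted p = 5.28e-07), whereas its more abundant relative UNC5C fell from 212, 197 and 201 to 134, 138 and 144 CPM (-0.55, adjusted p = 8.45e-08). The semaphorin receptor PLXNA2 rose by 0.85 (adjusted p = 6.92e-07), and the ephrin EFNB2 fell by 0.38 (adjusted p = 0.00064).

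Of 22 tested ion channel genes 9 rose and 3 fell, against 18.1% and 11.8% of all genes. The sodium channel gene SCN9A went from 22.2, 23.3 and 21.3 to 72.7, 68.1 and 79.5 CPM (1.68, limma adjusted p = 6.35e-11). The potassium channel gene KCNQ5 fell by 0.56 (adjusted p = 1.97e-06), and KCNK9 fell from 2.48, 1.95 and 1.9 to 0.428, 0.518 and 0.709 CPM (-1.0, adjusted p = 6.92e-05). Receptors of neuropeptides and transmitters gave 9 rises and 3 falls among 20 tested (all genes: 18.1% higher, 11.8% lower). Beside SSTR2, the glutamate receptor gene GRM7 rose from 19.4, 19.1 and 17.9 to 37.8, 36.5 and 36.1 CPM (0.93, adjusted p = 2.04e-09). ADCYAP1R1, the receptor of PACAP, fell by 0.50 (adjusted p = 1.69e-06) and the GABA receptor subunit GABRA5 by 0.63 (adjusted p = 9.99e-05). PACAP and its receptor therefore both had lower transcripts.

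Most listed collagen chains rose. Of 14 tested 11 rose, 1 fell and 2 were not called (all genes: 18.1% higher, 11.8% lower). Of the 14, 5 changed at least 2-fold, and their median was 0.70 beside 0.039 over all tested genes. This median is that of all 14. In none of the 14 did the siHAND2 and siCTR libraries overlap, against 42.4% of all genes without overlap. COL9A1, a chain of cartilage type IX collagen, was the listed chain that fell, from 2.84, 3.67 and 2.37 to 1.61, 1.75 and 1.45 CPM (-0.59, limma adjusted p = 0.00251). COL6A6, among the 12 largest falls, is not on the list. Other matrix glycoproteins and proteoglycans gave 9 rises and 3 falls among 25 tested, against 18.1% and 11.8% of all genes. These counts were 9 and 5 after median-ratio rescaling and 8 and 5 when quantile normalized. The falls include SDC2, a cell surface proteoglycan, from 136, 139 and 129 to 60.4, 60.02 and 65.5 CPM (-1.10, adjusted p = 1e-10), and THBS2, a matricellular protein, from 45.4, 42 and 43.5 to 22.6, 23.8 and 23.4 CPM (-0.88, adjusted p = 3.49e-08). Of the 25, 13 were higher in siHAND2 than in siMYCN and 5 lower (11.4% and 15.5% of all genes), and of the 14 collagens 8 were higher and 1 lower.

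Several of these genes also mark fibroblasts. Of 9 measured fibroblast or stromal markers 7 were tested, 5 rose and 1 (THY1, -0.20, adjusted p = 0.027) fell (18.1% and 11.8% of all genes). DCN, LUM and COL1A2 on this list are also among the 12 largest rises. The call of THY1 was lost in 5 alternatives, including the fits without siCTR replicate 2 or 3 or siHAND2 replicate 2 or 3. The summed level of the 9 measured markers was 291 to 292 CPM in siCTR and 421 to 474 CPM in siHAND2. PDGFRB, a receptor of platelet-derived growth factor, carried most of that gain, from 93.3, 88.5 and 87.6 to 198, 175 and 164 CPM (0.98, limma adjusted p = 3.84e-09), and COL3A1 went from 1.62, 1.5 and 1.14 to 4.08, 3.54 and 3.9 CPM (1.0, adjusted p = 2.44e-06). COL1A1, the main collagen chain of fibroblasts, stayed between 0.279 and 0.936 CPM and PRRX1, a mesenchymal homeobox factor, between 0.428 and 0.824 CPM in all 6 libraries. The part of such cells in the collagen and matrix results was not tested. TWIST1, which neuroblasts also express, measured 125, 124 and 118 CPM in siCTR and 126, 123 and 116 CPM in siHAND2. In bulk RNA a change in the number of cells of a type and a change in RNA per cell cannot be told apart.

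Among regulators and markers of the mesenchymal state of neuroblastoma 12 of 24 tested genes rose and 4 fell, against 18.1% and 11.8% of all genes, with a median of 0.23. NOTCH2 went from 83.6, 79.7 and 88.3 to 174, 166 and 157 CPM (0.97, limma adjusted p = 2.3e-09) and, unlike in siMYCN (76.2 CPM on average, 1.11 for siHAND2 minus siMYCN, adjusted p = 2.75e-10), lay above the control. RUNX1 fell from 4.55, 5.2 and 3.23 to 1.81, 2.23 and 1.67 CPM (-0.86, adjusted p = 0.000101), and the actin-binding gene CALD1 from 186, 179 and 176 to 144, 145 and 151 CPM (-0.30, adjusted p = 5.86e-05).

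Components of the Notch pathway gave 5 rises and 4 falls among 18 tested, against 18.1% and 11.8% of all genes. These counts were 4 and 4 after median-ratio rescaling and 4 and 5 when quantile normalized. The coactivator MAML2 rose from 16.3, 16.4 and 16 to 27.3, 28.4 and 29.3 CPM (0.77, limma adjusted p = 4.68e-08). The non-canonical ligands DLK1 and DLK2 both fell, DLK1 from 7.67, 8.16 and 7.78 to 1.48, 1.23 and 1.7 CPM (-1.85, adjusted p = 4.76e-10) and DLK2 from 4.8, 5.58 and 6.03 to 3.72, 4.22 and 3.72 CPM (-0.40, adjusted p = 0.00654). siHAND2 was lower than siMYCN for both (adjusted p = 2.44e-10 and 0.00422).

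In the TGF-beta and BMP pathways 16 of 29 tested genes rose and 1 fell, against 18.1% and 11.8% of all genes (13 and 1 under either other scaling). INHBA, the activin A subunit, went from 24.8, 22.9 and 21.5 to 76.1, 63.8 and 69.5 CPM (1.56, limma adjusted p = 6.3e-11). TLL2, a tolloid-like protease, went from 7.73, 8.09 and 8.11 to 21.3, 21.3 and 22.8 CPM (1.34, adjusted p = 1.22e-10). It rose further in siMYCN, to 25.9 CPM on average (-0.24 for siHAND2 minus siMYCN, adjusted p = 0.00727). INHBA was higher in siHAND2 than in siMYCN (1.13, adjusted p = 1.52e-09). Of the 29, 9 were higher in siHAND2 than in siMYCN and 3 lower, against 11.4% and 15.5% of all genes. The BMP antagonist gene GREM1 fell by 0.27 (adjusted p = 0.000714). The ID genes described above are known targets of BMP signalling.

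Wnt pathway genes gave 9 rises and 5 falls among 26 tested (all genes: 18.1% higher, 11.8% lower). The secreted inhibitors DKK2 and DKK1 rose, DKK2 from 68.2, 65.3 and 63.5 to 175, 161 and 157 CPM (1.31, limma adjusted p = 3.06e-11) and DKK1 from 9.75, 7.85 and 10.6 to 23.6, 21.9 and 22.8 CPM (1.20, adjusted p = 4.59e-08). A pair of receptors fell: FZD5 went from 17.7, 16.8 and 14.9 to 5.95, 7.01 and 7.76 CPM (-1.15, adjusted p = 4.84e-08) and LGR5, the R-spondin receptor, from 141, 132 and 136 to 68.5, 70.9 and 81 CPM (-0.89, adjusted p = 4.2e-09). These 4 genes differed in the same direction from siMYCN (adjusted p up to 5.85e-05, for DKK1).

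In the IGF axis 6 of 13 tested genes rose and 2 fell (all genes: 18.1% higher, 11.8% lower). Beside PAPPA, IGFBP3, a binding protein of insulin-like growth factors, rose from 15, 13 and 17.4 to 59.9, 62.5 and 46.2 CPM (1.83, limma adjusted p = 7.08e-09). IGF2 fell from 2.32, 2.56 and 2.09 to 0.625, 0.298 and 0.743 CPM (-1.10, adjusted p = 1.55e-05) and IGFBP2 from 203, 219 and 196 to 176, 170.3 and 159 CPM (-0.29, adjusted p = 0.000364). H19, the imprinted neighbour of IGF2 on chromosome 11, fell with it, from 779, 785 and 609 to 291, 251 and 259 CPM (-1.43, adjusted p = 3.82e-09). In a list of imprinted genes 5 of 18 tested rose and 7 fell, against 18.1% and 11.8% of all genes. PEG10 and SGCE, adjacent imprinted genes on chromosome 7, rose, PEG10 from 121, 120.2 and 116 to 194, 191 and 192 CPM (0.69, adjusted p = 1.56e-09) and SGCE by 0.66 (adjusted p = 5.57e-06).

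**Figure D4:**
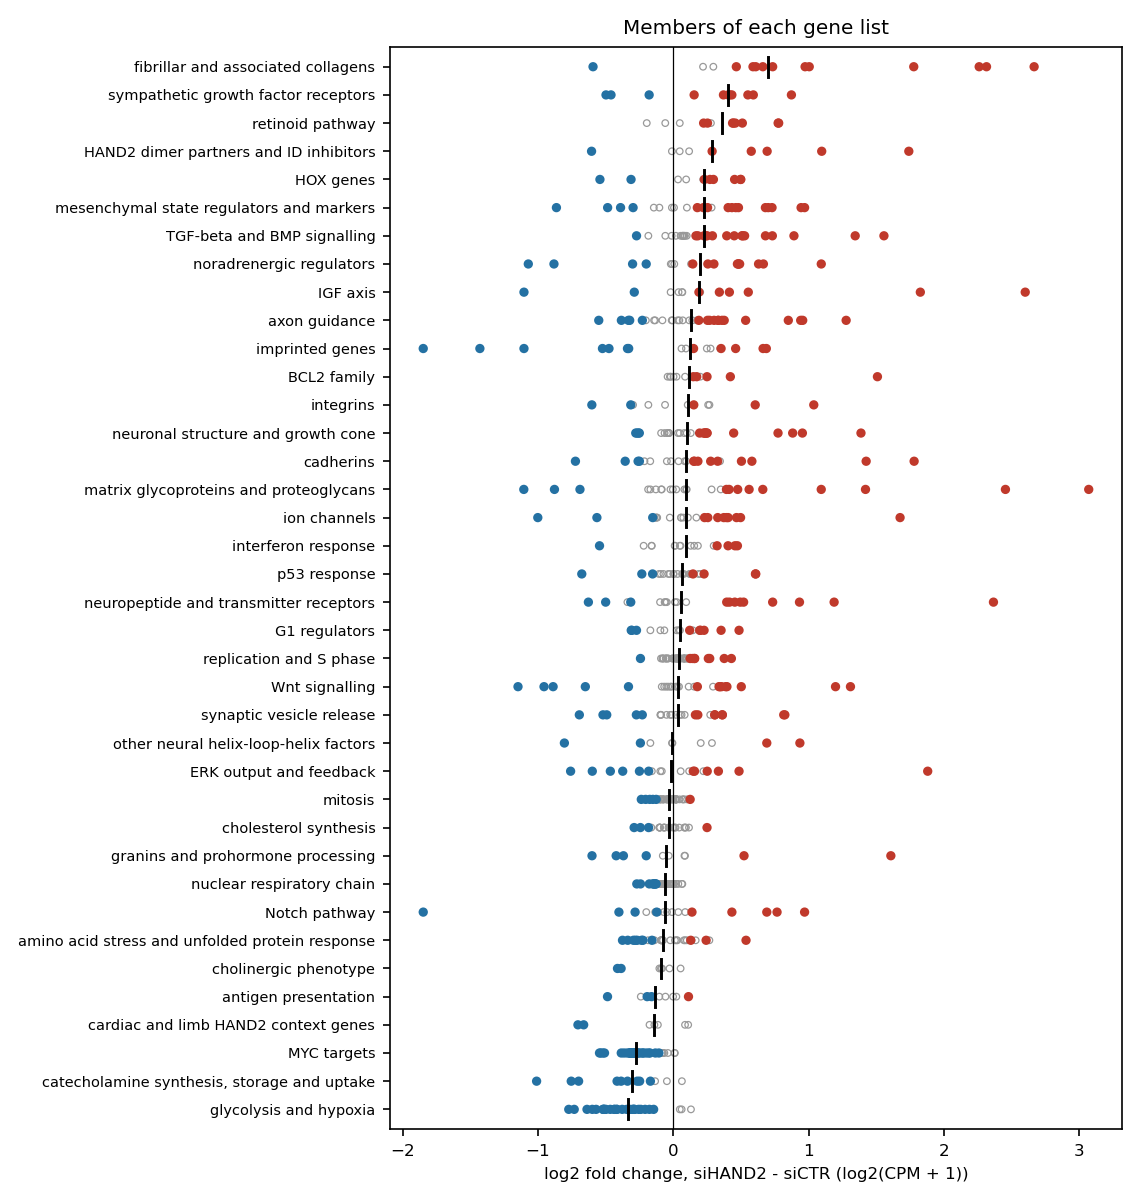
Log2 fold change (siHAND2 minus siCTR) of each tested member of the 38 gene lists; filled red and blue points were called higher and lower, open grey points were not called, and the black bar is the median of the list. Collagens have the highest median (0.70) and the list of glycolysis and hypoxia genes the lowest (-0.34).

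Most listed targets of MYC proteins, such as genes of ribosome assembly and growth, fell by small amounts. Of 40 tested, 33 fell and none rose (82.5% called against 29.9% of all genes), with a median of -0.28 and a range of -0.55 to 0.01. The importin gene IPO4 went from 68, 70.2 and 66.4 to 47.7, 48.8 and 43.8 CPM (-0.54, limma adjusted p = 1.63e-06) and the lactate dehydrogenase gene LDHA from 1451, 1455 and 1394 to 977, 937 and 1088 CPM (-0.52, adjusted p = 9.59e-07). In the direct comparison 18 of the 40 were higher in siHAND2 than in siMYCN and none lower, against 11.4% and 15.5% of all genes. MYCN itself averaged 914 CPM in siHAND2 and 1289 CPM in siMYCN (-0.50, adjusted p = 6.21e-07).

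Glycolysis and hypoxia genes gave a similar picture. Of 34 tested 28 fell and none rose (all genes: 18.1% higher, 11.8% lower), and 27 of 33 fell when the 1 gene shared with the MYC list (LDHA) was left out. Hexokinase 2 (HK2), which starts glycolysis, went from 148, 136 and 129.5 to 78.2, 79.7 and 82.9 CPM (-0.77, limma adjusted p = 6.27e-09), and the glucose transporter gene SLC2A1 from 76, 77.9 and 70.3 to 45.8, 44.2 and 43.6 CPM (-0.73, adjusted p = 2.46e-08). In the direct comparison 2 of the 34 were higher in siHAND2 than in siMYCN and 9 lower, against 11.4% and 15.5% of all genes. HK2 averaged 82.2 CPM in siMYCN and did not differ from siHAND2 beyond the threshold (limma, adjusted p = 0.658). SLC2A1 averaged 51.5 CPM in siMYCN and was lower in siHAND2 (-0.205, adjusted p = 0.00763). EPAS1, which encodes a hypoxia-inducible factor and is not on this list, rose. Subunits of the respiratory chain encoded in the nucleus gave 9 falls and no rise among 37 tested, with a median of -0.06, and their largest change, that of ATP5MC1, was -0.27 (adjusted p = 0.00111). The falls amount to 24.3% of this list, against 11.8% of all genes, and to 3 genes without siCTR replicate 2 and 4 without siHAND2 replicate 2.

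Cell cycle genes changed little. Of 45 tested genes of DNA replication 8 rose and 1 fell (5 called in all without siCTR replicate 2 or after median-ratio rescaling), and of 40 genes of mitosis 1 rose and 5 fell (15%; no rise and 10 falls after median-ratio rescaling, no rise and 7 falls when quantile normalized). Leaving out any 1 siCTR library, or siHAND2 replicate 1 or 2, left 1 or 2 calls among the mitosis genes. The share called in both lists lies below the 29.9% of all genes. Replication genes ranged from -0.24 to 0.43 and mitosis genes from -0.24 to 0.12. Those called with the smallest p include RFC3, a clamp loader subunit, which rose by 0.27 (limma adjusted p = 8.3e-05) and RRM2, a subunit of ribonucleotide reductase, which rose by 0.26 (adjusted p = 8.6e-05). The mitotic kinase PLK1 fell by 0.24 (adjusted p = 0.00298). Among regulators of the first gap phase 6 of 17 rose and 3 fell, against 18.1% and 11.8% of all genes (4 and 3 when quantile normalized). Beside CCND1, the inhibitor CDKN1A rose from 44.8, 47.3 and 48.8 to 58, 54.4 and 53.1 CPM (0.23, adjusted p = 0.00617), and CDK6 fell from 692, 668 and 685 to 494, 553 and 607 CPM (-0.31, adjusted p = 0.000902). SKP2, which targets cell cycle inhibitors for degradation, fell by 0.31 (adjusted p = 7.32e-05).

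Genes of the p53 response were called about as often as all genes, with 4 rises and 3 falls among 24 tested (29.2%). TP53INP1 and TP53I3 rose by 0.61 and 0.61 (limma adjusted p = 1.5e-06 and 1.08e-05), and FBXO32 fell by 0.68 (adjusted p = 5.77e-05). In the BCL2 family 5 of 12 rose and none fell, against 18.1% and 11.8% of all genes. Without siCTR replicate 2 or after median-ratio rescaling 3 were called. BMF, a pro-apoptotic member, went from 7.61, 7.86 and 7.97 to 25.8, 23.9 and 22.7 CPM (1.51, adjusted p = 2.35e-10) and lay above siMYCN (1.26, adjusted p = 9.9e-10). Its anti-apoptotic relative BCL2 went from 299, 286 and 290.2 to 383, 389 and 402 CPM (0.42, adjusted p = 1.16e-06) and did not differ from siMYCN beyond the threshold (0.01, adjusted p = 0.881). BMF was the only member of the 12 changed at least 2-fold.

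Double-stranded RNA can trigger interferon genes, so these were counted as well. The siCTR cells also received an siRNA, so a response shared by both groups cannot be seen in this comparison. Of 16 tested 4 rose and 1 fell (31.2%, near the background of 29.9%; 3 rose and 2 fell after median-ratio rescaling, 1 rose and 2 fell when quantile normalized), and the whole list stayed between -0.55 and 0.47. Without siCTR replicate 3, siHAND2 replicate 1 or siHAND2 replicate 2, 3 of the interferon genes were called. SAMD9 rose from 1.93, 1.76 and 1.85 to 2.89, 2.75 and 3.22 CPM (0.47, limma adjusted p = 0.00382), below its siMYCN mean of 5.05 CPM. Antigen presentation genes gave 1 rise and 3 falls among 10 tested, against 18.1% and 11.8% of all genes. After median-ratio rescaling there were 3 falls and no rise, and 2 were called in all without siCTR replicate 1 or 2. TAP2, a peptide transporter, fell by 0.49 (adjusted p = 0.00511) and the chaperone CANX by 0.19 (adjusted p = 0.00275).

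Among genes of amino acid stress and the unfolded protein response 3 of 30 rose and 8 fell (36.7% called against 29.9% of all genes). There were 2 rises and 10 falls after median-ratio rescaling and 2 and 9 when quantile normalized. PDIA4 was the fall of smallest p (-0.29, limma adjusted p = 1.71e-05). Cholesterol synthesis gave 1 rise and 3 falls among 23 tested (17.4% called against 29.9% of all genes). These counts were 1 and 6 after median-ratio rescaling and 1 and 5 when quantile normalized. With the replicate number as a block 7 were called.

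Of 12 tested genes of the retinoid pathway 8 rose, none fell and 4 were not called, against 18.1% higher among all genes (7 after median-ratio rescaling, 5 when quantile normalized), with a median of 0.36. The retinoic acid receptor gene RARB went from 24.3, 25.5 and 22.6 to 40.6, 41 and 44.2 CPM (0.77, limma adjusted p = 1.11e-07). The orphan receptor gene NR2F1 went from 8.77, 7.41 and 7.26 to 14.9, 13.7 and 13.7 CPM (0.78, adjusted p = 1.97e-06), and STRA6, a retinol uptake protein, went from 80.9, 87.3 and 85.8 to 127, 123 and 113 CPM (0.51, adjusted p = 6.3e-07). RARB and NR2F1 were also above siMYCN (adjusted p = 2.68e-07 and 1.15e-05), whereas STRA6 was slightly below it (-0.14, adjusted p = 0.0449).

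HOX genes gave 6 rises and 2 falls among 11 tested, all of the C and D clusters (all genes: 18.1% higher, 11.8% lower). HOXC8 rose from 1.16, 1.01 and 1.61 to 2.01, 2.19 and 2.34 CPM (0.50, limma adjusted p = 0.0056), while HOXD13, at the 5′ end of its cluster, fell from 13.1, 13.9 and 13.4 to 8.48, 8.8 and 9.57 CPM (-0.54, adjusted p = 2.12e-05). From a list of genes tied to HAND2 in the heart and limb 7 were tested and 2 fell (28.6% called, near the 29.9% of all genes). GATA4, a cardiac zinc-finger factor, went from 52.6, 49.9 and 51.2 to 32.6, 34 and 29.5 CPM (-0.66, adjusted p = 1.19e-06). DLX5, a homeobox factor of the limb and branchial arches, went from 13, 13.6 and 13.3 to 7.4, 7.65 and 8.25 CPM (-0.70, adjusted p = 7.98e-07). Both were below siMYCN (adjusted p = 3.83e-06 and 1.73e-08).

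Adhesion molecules changed in both directions. Of 21 tested cadherins and protocadherins 9 rose and 4 fell, against 18.1% and 11.8% of all genes (6 and 4 after median-ratio rescaling). The giant cadherin gene FAT3 went from 3.03, 3.59 and 3.65 to 13.3, 13.8 and 15.4 CPM (1.78, limma adjusted p = 8.7e-10) and PCDH9 from 10.2, 9.88 and 12.1 to 27.6, 30.7 and 33.1 CPM (1.43, adjusted p = 4.84e-08). PCDH17, on the same chromosome as PCDH9, fell from 101, 95.8 and 93.7 to 73.3, 77.1 and 75.8 CPM (-0.36, adjusted p = 9.32e-06). Of 11 tested integrin subunits 3 rose and 2 fell, against 18.1% and 11.8% of all genes. These counts were 2 and 3 after median-ratio rescaling and 3 and 3 when quantile normalized. In the fit without siCTR replicate 3 there were 3 calls in all. ITGA6, a laminin receptor subunit, went from 11.6, 13.3 and 10.1 to 26.4, 23.5 and 24.6 CPM (1.04, adjusted p = 7.27e-08). ITGA1, a collagen receptor subunit, went from 82.8, 84.3 and 83.7 to 124, 121 and 138 CPM (0.61, adjusted p = 3.63e-07), and ITGB5 fell by 0.60 (adjusted p = 2.84e-06).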

How the data were processed

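RNA of 9 LAN5 libraries was analysed, and the 3 siHAND2 libraries were compared with the 3 siCTR libraries. The authors deposited CPM values, 1 column per library, with a constant of 0.0001 in every value and column sums of 1000002.4 to 1000002.6. Per the submitters' processing notes STAR 2.5.1 and Partek were used; the notes name the builds hg19 and GRCh37. The positions in the table nevertheless match GRCh38: of 18215 symbols found in the GRCh38 gene table, 91.4% had a start within 5000 bp, so positions are given as GRCh38, counted from 1. The counting tool, strand use and annotation are not given in the sources used here, so genes that overlap on opposite strands or share reads are uncertain.

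Of the values up to 20 steps of 1 read, 80.0% to 81.2% came out whole to 0.02 of a step. This was under the 95% set as needed, so no count model was used and the depths are estimates. The comparison used limma 3.58.1 in R 4.3.3 on log2(CPM + 1) of the 14495 genes that reached 1 CPM in 3 or more libraries (10589 left out), 1 mean per group over all 9 libraries, an intensity trend and two-sided tests. Largest changes were named by rank among called genes whose CPM averaged 5 or more and with groups apart (12 rises, 12 falls, and the 5 largest rises and falls in CPM), and from each list up to 2 called genes per direction with the smallest p, or any member of lists of at most 12; some genes that this rule names are not reported here. The lists and the comparison were chosen with earlier results of these data known, so lists are described by counts and medians without a test. Same-numbered siCTR and siHAND2 libraries deviated together (correlation 0.122 to 0.267 across genes). These values passed the limit of 0.1 set for this check. However, siCTR replicate 2 with siHAND2 replicate 1 gave 0.183, above the 0.153 and 0.122 of the pairs numbered 1 and 2. The check therefore cannot decide whether the numbers pair the libraries. The main fit held no replicate block, so its p-values ignore any pairing. The block was an alternative.

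Alternatives were pseudocounts of 0.1 and 5 CPM, no filter, a 5 CPM filter, 2 other scalings, the 6 libraries alone, no trend, the replicate block and each library left out. Simulated data for this comparison had 14411, 14397 and 14397 genes tested for log2 changes of 0.25, 0.5 and 1. Of 200 changed genes 6% were recovered at 0.25, 88% at 0.5 and 100% at 1. All other genes were left unchanged, and the spread between libraries beyond counting (dispersion) was fixed at 0.005. The data gave 4339 calls, which makes the Benjamini-Hochberg cutoff looser than in the simulation. These shares therefore do not give the recovery in the data.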

Additional observations from a re-analysis of the deposited data

How the results depend on the processing

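The number of genes past the threshold stayed within 1.5 times the 4339 reported under all 18 alternatives, from 3079 without siCTR replicate 2 to 5089 with the replicate number as a block (3143 higher, 1946 lower); the leave-one-out fits gave 3079 to 4341. The replicate block turned no named gene's call and, among list counts, moved that of cholesterol synthesis by over 1.5 times (4 to 7) and no other. The count of at least 2-fold changes moved with the pseudocount, to 267 at 0.1 CPM and 60 at 5 CPM, because a pseudocount scales the fold of low genes. Of 150 named genes 141 kept direction and call under every alternative that kept them in the test. The differences of TWIST1 and PHOX2A, which were not called, changed sign: over the leave-one-out fits TWIST1 ranged from -0.0349 to 0.0248 and PHOX2A from -0.0942 to 0.0794. Counts of called list members that moved were, after median-ratio rescaling, 5 for replication, 10 for mitosis, 3 for the BCL2 family and 7 for cholesterol synthesis; when quantile normalized, 3 for interferon and 5 for retinoid genes; without the intensity trend, 1 for mitosis and 5 for the respiratory chain; with no filter, 3 for interferon; and with a 5 CPM filter, which tests fewer genes, 1 for interferon and 5 for HOX genes. Leaving out single libraries gave 5 to 9 for replication, 1 to 7 for mitosis, 3 to 6 for the BCL2 family, 3 to 4 for interferon, 2 to 5 for antigen presentation, 3 to 10 for the respiratory chain and 3 to 7 for integrins. Medians that moved were those of growth factor receptors (0.205 at a pseudocount of 5 CPM, 0.262 with a 5 CPM filter), retinoid genes (0.199 at a pseudocount of 5 CPM, 0.239 with no filter), collagens (0.974), neuropeptide receptors (0.395) and HOX genes (0.095) with the 5 CPM filter, and the IGF axis (0.066) and integrins (-0.009) with no filter. Apart from the effects of filters and pseudocounts named here, the cause was not tested. Counting error limits genes near 1 CPM. Few changes of 0.25 on the log2 scale were called in simulated data with 200 changed genes, and their recovery in these data was not tested.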
